A study of Mus musculus with 3 samples.

Results

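Nuclear genes for the subunits of the mitochondrial respiratory chain and ATP synthase were followed through single-cell RNA libraries of mouse nasal mucosa. They were taken by gene symbol: Nduf followed by a, b, c, s or v and a digit, the 4 Sdh genes, and symbols starting with Uqcr, Cox4 to Cox8 with a letter from a to c, or Atp5. Of 55357 genes listed, 102 matched and 87 had at least 100 UMIs (unique molecular identifiers, 1 per captured RNA molecule) over the libraries. These 87 genes comprised 76 standard subunits, 5 tissue isoforms and 6 pseudogenes or gene copies. Complex I contributed 39 of them, complex II 4, complex III 8, complex IV 18 and complex V, the ATP synthase, 18. The summed UMI number alone chose them: Atp5pb-ps with 137 UMIs and Cox5b-ps with 550 lay just inside the minimum, and Cox6c2 with 88 and Atp5l2-ps with 40 just outside. At least 10000 UMIs were counted for 76 of the 87, so counting error was small for most single genes.

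All mice were C57BL/6J, and each group held both sexes. The PBS group received PBS in the nose, the papain group 20 µg papain in the nose with PBS by gavage, and the last group papain in the nose with 10 mg/kg lonidamine (LND) by gavage. Papain is a plant protease used here to raise an eosinophilic sinusitis model, and lonidamine is known as an inhibitor of hexokinase, of the mitochondrial pyruvate carrier and of complex II. Each group was pooled into 1 library, so no spread between animals could be measured, no test between groups was possible and no p-value is given. The sources used here do not say how many mice a pool held, the gavage of PBS is stated for the papain group only, and the papain library is named Fibroblast in its labels although it held every class compared.

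The chain passes electrons from NADH through complex I and from succinate through complex II to ubiquinone, then through complex III and cytochrome c to complex IV, which reduces oxygen. Complexes I, III and IV pump protons, and complex V uses their return to make ATP. A small core of subunits is encoded by mitochondrial DNA and the rest by the nucleus, so both sets of genes are needed for each complex except the all-nuclear complex II. Some complex IV subunits have a second gene used in heart, skeletal muscle, brown fat, testis or hypoxic tissue: Cox8b, Cox6a2 and Cox7a1 are known from heart, muscle or brown fat, Cox6b2 from testis, and Ndufa4l2 from hypoxic cells and pericytes.

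After filtering, 9378 (PBS), 10524 (papain) and 11887 (papain with LND) cells were kept, with 7352.5, 6547 and 5823 UMIs in the median cell. The PBS library differed from the others in more than the chain. Cells assigned by sex-linked RNA were 56.8%, 73.2% and 83.1% female, mitochondrial ribosomal RNA took 1.08%, 2.38% and 2.16% of UMIs, and the nuclear 18S gene Rn18s-rs5 had 701447, 3034181 and 2985797 UMIs. Mature olfactory neuron-like cells numbered 2818, 1299 and 1432 among the kept cells. Between 22 and 38 barcodes were shared by any pair of libraries and 0 by all. These values moved with the comparison of papain and PBS, and their part in the results was not tested beyond the settings given below. In sums over all cells, a different cell mix and less RNA per cell cannot be told apart, and both comparisons use the same papain library.

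Cells were sorted into classes by marker genes and are called "-like" for that reason, and the 14 classes that held 50 or more cells in each library were compared. Ratios are log2 ratios of CPM, a gene's summed UMIs scaled to the same total in every library or class. Square brackets give 95% binomial intervals, which cover counting error only and say nothing of animals.

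The nuclear genes of all 5 complexes were lower in the papain library than in the PBS library. Summed, they took 2.75% of UMIs in PBS, 2.08% in papain and 1.97% in papain with LND. Over all cells, 83 of 87 genes had a log2 ratio of papain to PBS below 0, where 51.4% of 19630 genes with enough UMIs did. Their median was -0.44 with quartiles of -0.57 and -0.25, beside -0.02 for all genes. The displacement was shallow: 1 of 87 genes was at least 2-fold lower (4.59% of all genes) and 1 was at least 2-fold higher (9.28%). Between papain with LND and papain, 70 of 87 were below 0 (44.1% of all genes) with a median of -0.08, and 0 genes were 2-fold apart (1.21% of all genes lower, 1.97% higher). In male cells alone this second median was 0.01 with 40 of 87 genes below 0, beside 0.09 for all genes. In female cells it was -0.11 with 73 below 0, beside 0.01 for all genes.

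**Figure D1:**
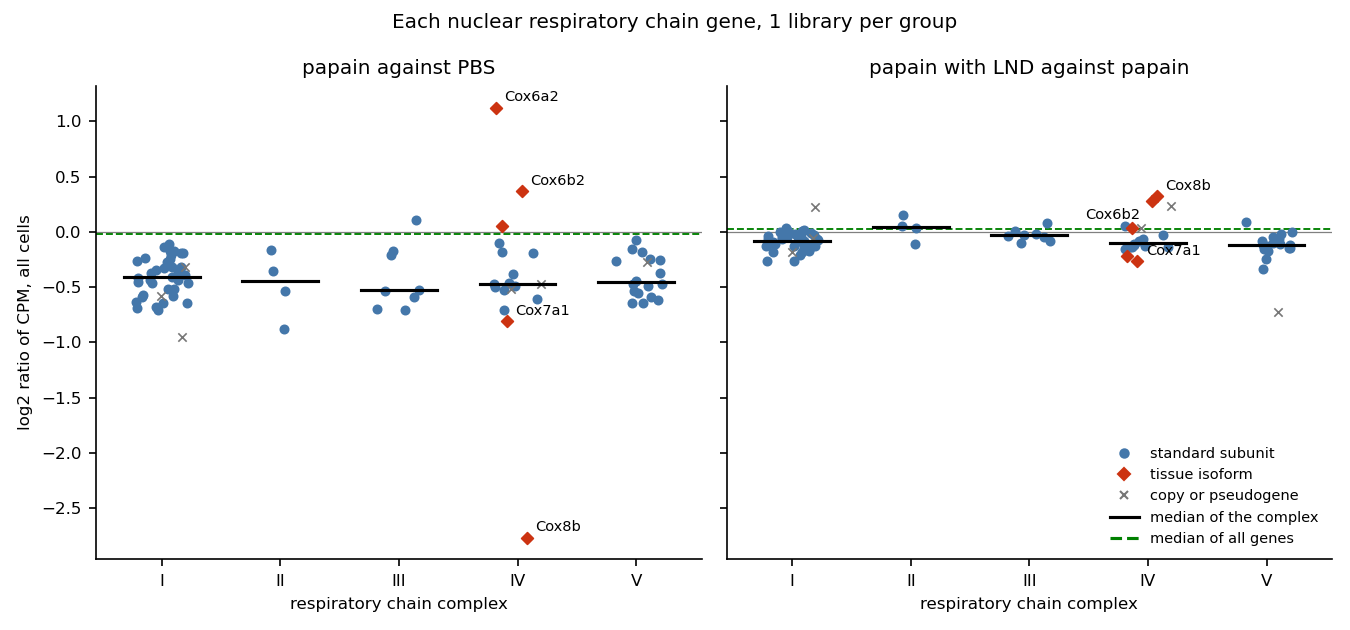
Log2 ratio of CPM over all cells for each of the 87 genes by complex, papain against PBS on the left and papain with LND against papain on the right, with 1 library per group. Most points lie below 0 on the left, with Cox8b at -2.76 and Cox6a2 at 1.12 as the ends, and near 0 on the right.

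Complex I, the NADH dehydrogenase, took 0.851% of UMIs in PBS, 0.657% in papain and 0.623% in papain with LND. All 39 of its genes were below 0 in papain against PBS, with a median of -0.41. Ndufa1, a small membrane subunit, was at the upper end among those with at least 1000 UMIs: 19673, 18880 and 18368 UMIs in the order PBS, papain, papain with LND, a ratio of -0.11 [-0.14, -0.08]. Ndufb6, an accessory subunit of the membrane arm, was at the lower end with 16466, 10441 and 10737 UMIs, a ratio of -0.71 [-0.74, -0.67]. Both intervals lie below 0, and the complex therefore differed in degree rather than direction between its subunits. Ndufa12 had 11559, 7428 and 6355 UMIs (-0.69), and it was lower again under LND than under papain (-0.26). Its pseudogene Ndufa12-ps had 451, 241 and 237 UMIs (-0.95), but the sequences are alike and reads may be divided between them.

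Complex II, the succinate dehydrogenase of the citric acid cycle, took 0.0566%, 0.0397% and 0.0408% of UMIs, and it has no mitochondrially encoded subunit. Sdhb, which carries the iron-sulphur clusters, had 16509, 9288 and 8820 UMIs, and its ratio of -0.88 [-0.92, -0.85] was the lowest of the standard subunits over all cells. Sdha, the flavoprotein that binds succinate, had 13561, 11000 and 12499 UMIs, so papain with LND lay between papain and PBS. Its ratios were -0.35 [-0.39, -0.32] for papain against PBS and 0.15 [0.11, 0.19] for papain with LND against papain. The membrane anchors Sdhc and Sdhd had 8330, 7702 and 8174 UMIs (-0.17) and 6870, 4915 and 5171 UMIs (-0.54). Complex II was the one complex whose median was above 0 under LND, at 0.04 with 1 of 4 genes below 0.

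Complex III, which passes electrons from ubiquinol to cytochrome c, took 0.311%, 0.255% and 0.254% of UMIs, and 7 of its 8 genes were below 0 in papain against PBS. Uqcrc2, named a core protein, had 15280, 9730 and 9861 UMIs (-0.70), and Uqcrfs1, the Rieske iron-sulphur protein, had 17897, 11424 and 11443 (-0.70). Uqcrh, the hinge protein next to cytochrome c1, was the exception with 59416, 66245 and 71910 UMIs. Its ratios were 0.10 [0.09, 0.12] and 0.08, so it was higher in papain than in PBS, where Uqcrc2 and Uqcrfs1 were lower.

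Complex V took 0.774%, 0.571% and 0.538% of UMIs, and all 18 of its genes were below 0 in papain against PBS, from -0.64 to -0.08. Atp5o, in the stalk, had 33994, 22591 and 21891 UMIs (-0.64), and Atp5b, the catalytic beta subunit, had 67441, 44852 and 42882 (-0.64). Atp5l, the g subunit of the membrane part, had 12509, 12312 and 10679 UMIs, hardly different in papain (-0.08 [-0.11, -0.04]) and lower with LND (-0.24). Subunit c of the proton-carrying ring has 3 genes that encode the same mature protein. Atp5g1 had 23483, 17922 and 16851 UMIs (-0.44), Atp5g2 1027, 957 and 777 (-0.15) and Atp5g3 30418, 27761 and 27479 (-0.18), so the ratio of Atp5g1 was the lowest of the 3.

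Complex IV, cytochrome c oxidase, took 0.757%, 0.553% and 0.518% of UMIs, and 15 of 18 genes were below 0 in papain against PBS. Among the general partners of the tissue isoforms, Cox8a had 95634, 75962 and 74464 UMIs (-0.38), Cox6a1 29251, 21454 and 22873 (-0.50), Cox6b1 44249, 33366 and 32219 (-0.46), Cox7a2 48879, 36185 and 33861 (-0.49) and Cox7b 35325, 25394 and 24156 (-0.53). All 5 were lower in papain, within a narrow span. Ndufa4, first assigned to complex I and now known as a complex IV subunit, had 84020, 76701 and 71629 UMIs (-0.18). Cox8b, the lowest gene of the complex, and Cox6a2, the highest, were both tissue isoforms. Cox7b2 had 0 UMIs and Cox8c, a testis isoform, 3, so neither reached the minimum.

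**Figure D2:**
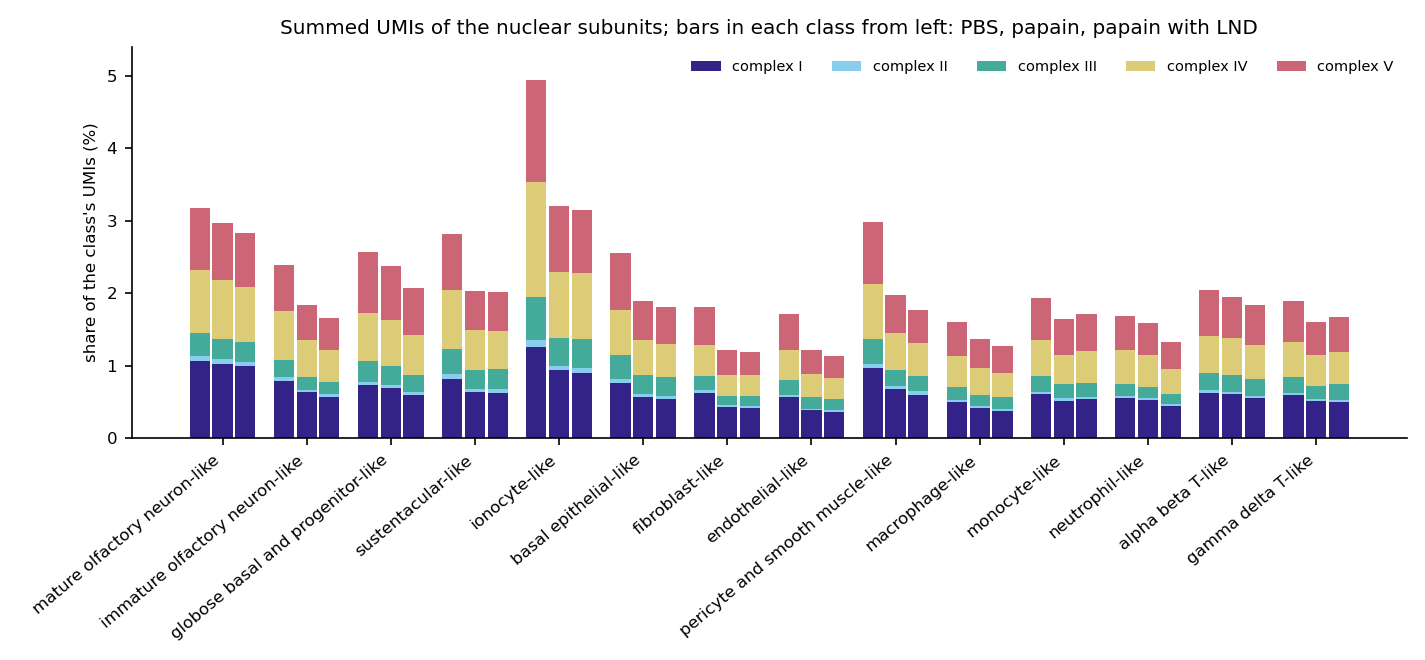
Share of each class's UMIs (%, stacked by complex) taken by the nuclear subunits, with bars for PBS, papain and papain with LND from left to right in each of 14 classes. The ionocyte-like PBS bar stands highest at 4.94%, and every papain bar is below its PBS bar.

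Within the marker-gated classes the nuclear genes were also lower in papain than in PBS. Their median was below 0 in 14 of 14 classes, and below the median of all genes measured there in 14 of 14. It ranged from -0.61 in fibroblast-like to -0.04 in neutrophil-like cells, while the median of all genes lay between -0.13 and 0.18. The lowest medians were in fibroblast-like (-0.61), pericyte and smooth muscle-like (-0.59), endothelial-like (-0.55) and ionocyte-like cells (-0.55). Alpha beta T-like cells (-0.09), globose basal and progenitor-like cells (-0.10) and mature olfactory neuron-like cells (-0.12) were, with neutrophil-like cells, closest to 0.

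Ionocyte-like cells, the mitochondria-rich ion-transporting cells of the airway epithelium, had the largest shares in each library. Nuclear subunits took 4.94% of their UMIs in PBS, 3.20% in papain and 3.15% in papain with LND, a summed log2 ratio of -0.63 for papain against PBS and -0.02 for LND. Complex IV alone took 1.59%, 0.913% and 0.913% there. Of 83 genes measured in this class, 82 were below 0 (52.6% of all genes in the class) and 4 were at least 2-fold lower, where 3.97% of all genes were: Atp5g1, Cox8b and the pseudogenes Cox7c-ps1 and Ndufa12-ps. Fibroblast-like cells had 8 of 79 genes at least 2-fold lower (7.39% of all genes) and endothelial-like cells 7 of 78 (5.93%), and Sdhb, Ndufa12, Ndufs3 and Cox8b were in both sets. These counts lie slightly above the shares of all genes in the class but rest on few genes, so no excess of large differences is read from them. The median of the nuclear genes lay below that of all genes in each of these classes.

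The classes did not draw on the same cells in every library. Mature olfactory neuron-like cells came mostly from cluster 1 (led by S100a5 and Pcdh10) in PBS and from cluster 0 (Olfr560, Olfr958) in the others, sustentacular-like cells from cluster 15 (Slc22a20, Chil6) in PBS and cluster 8 (Muc2, Gldn) in the others, and basal epithelial-like cells from cluster 14 (Nrcam, Abca4) in PBS and cluster 2 (Krt15, Ifi202b) in the others. Within cluster 1 the median of the nuclear genes was 0.03 and within cluster 0 it was -0.13, beside 0.13 and 0.05 for all genes. For mature olfactory neuron-like cells the direction therefore differed between the clusters, although the nuclear genes lay below all genes in each. Cluster 1 held 2386, 95 and 70 cells in the order PBS, papain, papain with LND, and cluster 0 held 191, 1153 and 1238. For sustentacular-like cells the medians were -0.45 in cluster 15 and -0.37 in cluster 8. For basal epithelial-like cells they were -0.64 in cluster 14 and -0.47 in cluster 2. Cluster 23, a group without a class name led by 5430402E10Rik and Gm14744, had 195, 60 and 186 cells. Of 77 nuclear subunit genes measured there, 76 were at least 2-fold lower in papain than in PBS, but so were 63.0% of all its genes. Their median was -1.97 beside -1.39 for all genes, and the cluster enters no class.

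**Figure D3:**
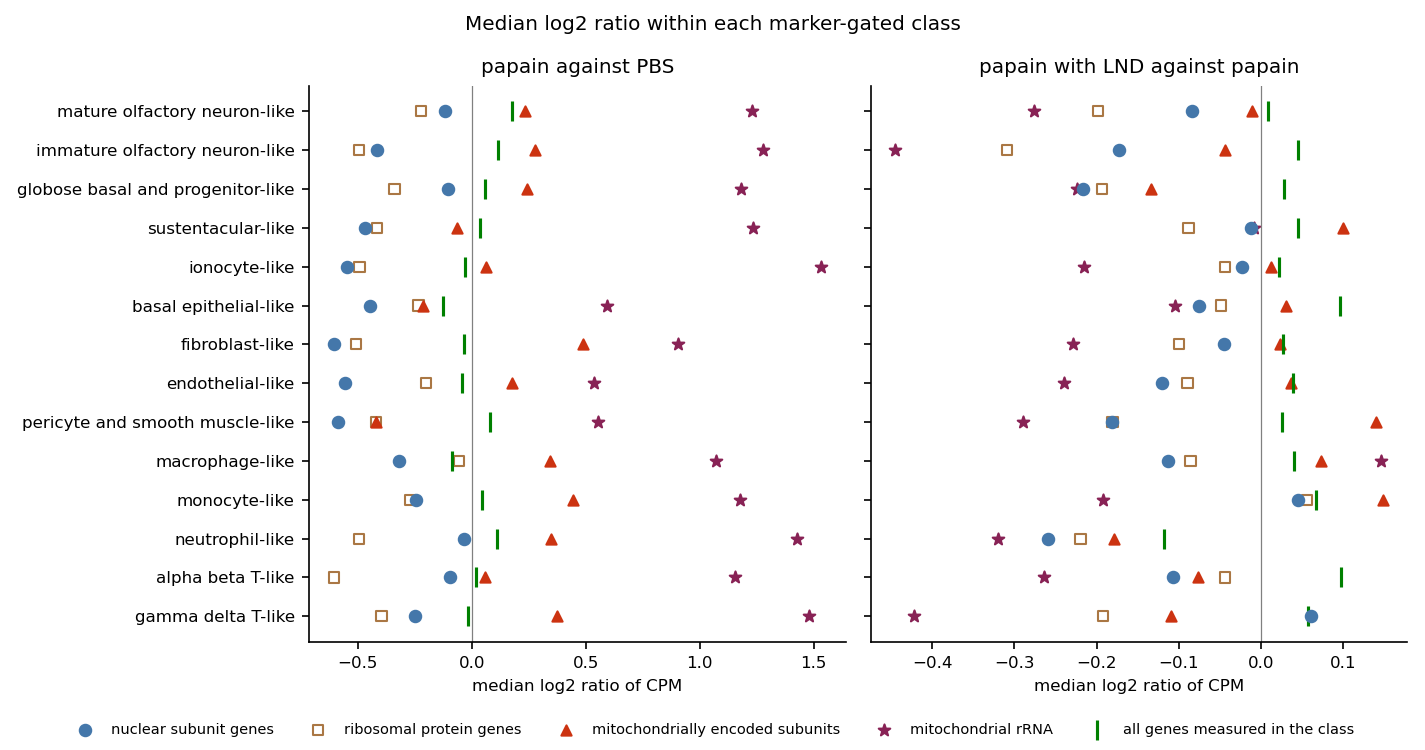
Median log2 ratio of CPM in each of 14 classes for the nuclear subunits, ribosomal protein genes, mitochondrially encoded subunits, mitochondrial rRNA and all genes measured, with papain against PBS on the left and papain with LND against papain on the right (the axes differ). On the left the nuclear subunits lie below all genes in 14 of 14 classes, while mitochondrial rRNA lies above 0 in each.

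Of the 74 nuclear genes measured in all 14 classes, 21 were below 0 in every class in papain against PBS and 47 in at least 12. The matching share over all genes was not counted, so these counts are not read as particular to the chain. The classes share the same libraries, and the median of ribosomal protein genes was also below 0 in 14 of 14. The 21 included Uqcrc1 and Uqcrc2, the subunits of complex III named core proteins, Atp5b and Atp5c1 of the ATP synthase head, and Cox5a. Ndufs7, Ndufs8 and Ndufv2, which belong to the electron-carrying arm of complex I, were also among them, as were Ndufa7, Ndufb8, Ndufb10, Atp5j2 and Atp5h. Not every gene of these parts was: Ndufs1 and Ndufv1 of that arm were below 0 in 8 and 12 of 14 classes, and Atp5a1 of the head in 10. Uqcrfs1, the Rieske protein of complex III, was below 0 in 13. Sdhb had the lowest median over classes among the 21, -0.88, and ranged from -1.57 to -0.26. Its CPM was 287 in PBS, 151 in papain and 144 in papain with LND in ionocyte-like cells, 166, 77.1 and 74.4 in basal epithelial-like cells, and 267, 223 and 211 in mature olfactory neuron-like cells. Sdhb was thus lower in papain in epithelium by about its all-cell amount and by less in mature neurons. At the other end, Atp5l had a median over classes of 0.08 with 5 of 14 below 0, and Uqcrh of 0.00 with 7 of 14.

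Under LND against papain the median of the nuclear genes was below 0 in 12 of 14 classes, but no class lay beyond -0.26 (neutrophil-like) or 0.06 (gamma delta T-like). Over all cells the medians by complex were -0.08 for I, 0.04 for II, -0.03 for III, -0.10 for IV and -0.12 for V. Of the 74 genes measured in all 14 classes, 5 were below 0 in each. They were Atp5l (median -0.20), Ndufa8 (-0.19), Ndufa7 (-0.19), Atp5j2 (-0.18) and Ndufb10 (-0.09). The matching share over all genes was not counted. Sdha and Atp5a1, the flavoprotein of complex II and the alpha subunit of ATP synthase, went the other way, with medians of 0.18 and 0.11 and each below 0 in 2 of 14. Sdha ranged from -0.36 to 0.30 over the classes, so its direction was shared by most classes but not all.

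Cox8b was the farthest from 0 of the 87 genes. It encodes the heart, muscle and brown fat form of the smallest complex IV subunit, and it had 28263 UMIs in PBS, 4311 in papain and 5516 in papain with LND, or 353, 52.0 and 64.9 CPM. It was 6.80-fold lower in papain than in PBS (log2 -2.76 [-2.81, -2.72]), and 0.32 [0.26, 0.38] higher on the log2 scale with LND than with papain. The second difference was -0.0245 when cells were weighted equally in place of UMIs, so it has no stable direction. Skeletal muscle, heart and adipocyte marker sets gated 0 cells, and their summed UMIs were 726, 563 and 422 for 8 skeletal muscle markers (1 at 0 in every library), 364, 425 and 433 for 5 heart markers (0 at 0) and 4321, 878 and 747 for 7 adipocyte markers (1 at 0). Most of the heart sum was Tnnt2 (197, 197 and 212 UMIs) and Tnni3 (157, 132 and 135), while Myh6 had 3, 90 and 74. Most of the adipocyte sum was Cidea, with 4212, 756 and 559 UMIs, of which 3506, 389 and 327 were in mature olfactory neuron-like cells. Of the defining adipocyte genes, Ucp1 had 8, 10 and 11 UMIs and Adipoq 9, 13 and 79. Adipoq was thus higher with LND than with papain (2.52 [1.71, 3.54]), from few counts. Plin4 had 89, 95 and 97 UMIs. The part of adipocyte RNA in the Cox8b counts was not tested.

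The upstream sequences of Cox8b and of its general partner Cox8a are shown because these genes encode forms of the same subunit and differed so much. Each runs from 150 bases before to 25 bases after the annotated start (RefSeq, GRCm38.p6, an older build than that of the deposited counts). Cox8a is at chr19:7217592-7217766 and Cox8b at chr7:140900422-140900596, both on the minus strand and printed 5′ to 3′. Capitals mark an ETS motif (CCGGAAG on the reverse strand, printed as its complement) in Cox8a and a TATA box (TATAAA) in Cox8b.
Cox8a: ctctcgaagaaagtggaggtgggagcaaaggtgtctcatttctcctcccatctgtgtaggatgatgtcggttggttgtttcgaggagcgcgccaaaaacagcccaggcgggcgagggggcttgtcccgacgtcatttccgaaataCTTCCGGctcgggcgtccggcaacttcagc
Cox8b: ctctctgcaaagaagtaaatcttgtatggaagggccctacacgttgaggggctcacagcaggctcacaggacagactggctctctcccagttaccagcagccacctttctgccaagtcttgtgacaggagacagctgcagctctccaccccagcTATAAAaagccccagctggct
In the full window of 250 bases before to 50 after the start, Cox8a held 19 CpG dinucleotides and Cox8b 2, the fewest of the 73 windows found for 68 of the 87 genes (median 19, and 7 over 32851 windows of all genes). The TATAAA of Cox8b began 4 bases after the annotated start, and the start in RefSeq may not be the one used in these cells. The next lowest CpG numbers were those of Cox7b with 5 and of the muscle isoform Cox7a1 with 7.

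Motifs known from respiratory chain promoters were counted on both strands of the same windows. The NRF1 motif GCGCANGCG was in 28.8% of the subunits' windows and 6.25% of all, the ETS motif CCGGAAG in 23.3% and 8.86%, the YY1 motif AANATGGCG in 13.7% and 2.38%, the ERR motif TNAAGGTCA in 4.11% and 1.28%, and TATAAA in 8 of 73 windows and 13.6% of all. Median ratios of papain to PBS were below 0 both with and without each motif. The median was -0.36 in the 20 genes with an NRF1 motif and -0.47 in the 48 without, and -0.46 in the 17 genes with an ETS motif and -0.44 in the 51 without. It was -0.40 in 10 genes with a YY1 motif and -0.46 in 58 without. For ERR it was -0.33 in 3 genes and -0.45 in 65, and for TATAAA -0.39 in 7 and -0.45 in 61. These differences were not tested. A match is a run of letters only and says nothing about binding. The NRF1, ETS and YY1 motifs each contain CG, and the windows of all genes were not matched for CpG (median 7, beside 19 for the subunits). Whether the higher shares go beyond CpG content was not tested, and the ERR share rests on 3 windows.

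Cox8b RNA was found mainly in ionocyte-like, sustentacular-like and ungated cells. In ionocyte-like cells it was counted 10376 times in 537 PBS cells, 1206 times in 361 papain cells and 1168 times in 305 cells of papain with LND, or 2031, 429 and 551 CPM. The ratio was -2.24 [-2.33, -2.16] for papain against PBS. A Cox8b UMI was present in 96.5% [94.5, 97.9], 69.3% [64.2, 74.0] and 70.8% [65.4, 75.9] of these cells, at median depths of 9272, 7096 and 6293 UMIs. After thinning each cell to 3000 UMIs, which left out 5, 15 and 13 shallower cells, the shares were 93.8%, 55.2% and 61.6%. Most ionocyte-like cells thus still held the RNA in papain, at a lower level.

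Sustentacular-like cells, which support the neurons of the olfactory epithelium, had 5398, 1094 and 1512 Cox8b UMIs in 298, 639 and 890 cells, or 1156, 126 and 133 CPM. The ratio was -3.20 [-3.29, -3.11] for papain against PBS and 0.08 [-0.03, 0.19] for LND against papain. Shares of cells with a UMI were 82.9%, 35.5% and 37.8%, and 71.6%, 15.7% and 18.4% after thinning. Since the class drew on different clusters, the ratio was also taken within each: -2.73 [-2.82, -2.63] in cluster 15 (1413, 213 and 211 CPM) and -2.91 in cluster 8 (462, 61.4 and 60.7 CPM). It was -2.61 in cells with a Muc2 UMI and -2.74 in those without, so it was present in each kind of supporting cell at a smaller size than in the class as a whole.

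Basal epithelial-like cells had 120, 8.71 and 9.54 CPM of Cox8b, a ratio of -3.78 [-4.06, -3.53]. A UMI was found in 37.7% of them in PBS, 4.50% in papain and 4.17% in papain with LND, and in 20.0%, 2.27% and 2.24% after thinning. This class also drew on different clusters. The ratio was -3.22 in cluster 14 (203, 21.5 and 17.7 CPM) and -2.92 in cluster 2 (11.8, 1.53 and 2.80 CPM). Both are closer to 0 than the class ratio, and the part of the change of clusters in it was not tested. Alpha beta T-like cells were taken as the background, a choice that was not tested. Their shares were 7.77% [4.94, 11.5], 1.66% [0.61, 3.58] and 1.51% [0.49, 3.48], at median depths of 3179, 3214 and 2818.5 UMIs. After thinning they were 7.23%, 1.97% and 1.39%. Thinned shares in papain and in papain with LND were close to these in basal cells, and above them in ionocyte-like and sustentacular-like cells. The T cell level was 58.2, 13.4 and 8.08 CPM, highest in PBS as in basal cells. Other classes lay on both sides of it in PBS, with 15.8 CPM in pericyte and smooth muscle-like and 164 in neutrophil-like cells.

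Of 13 classes in which Cox8b was measured, 12 had a papain ratio below 0, each at least 2-fold, from -4.05 in fibroblast-like cells; pericyte and smooth muscle-like cells were the exception at 0.21. Ionocyte-like, sustentacular-like and basal epithelial-like cells had shares of cells with a UMI well above that of T cells in PBS. In most of the other classes the share was not far from that of T cells, and single cells could hold many UMIs. In mature olfactory neuron-like cells, 57.3, 7.59 and 7.51 CPM were found, with a UMI in 306, 26 and 39 cells and 131 of the 1247 PBS UMIs in 1 cell. Values there are read as background and not as expression, by the T cell level alone, and this reading was not tested.

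**Figure D4:**
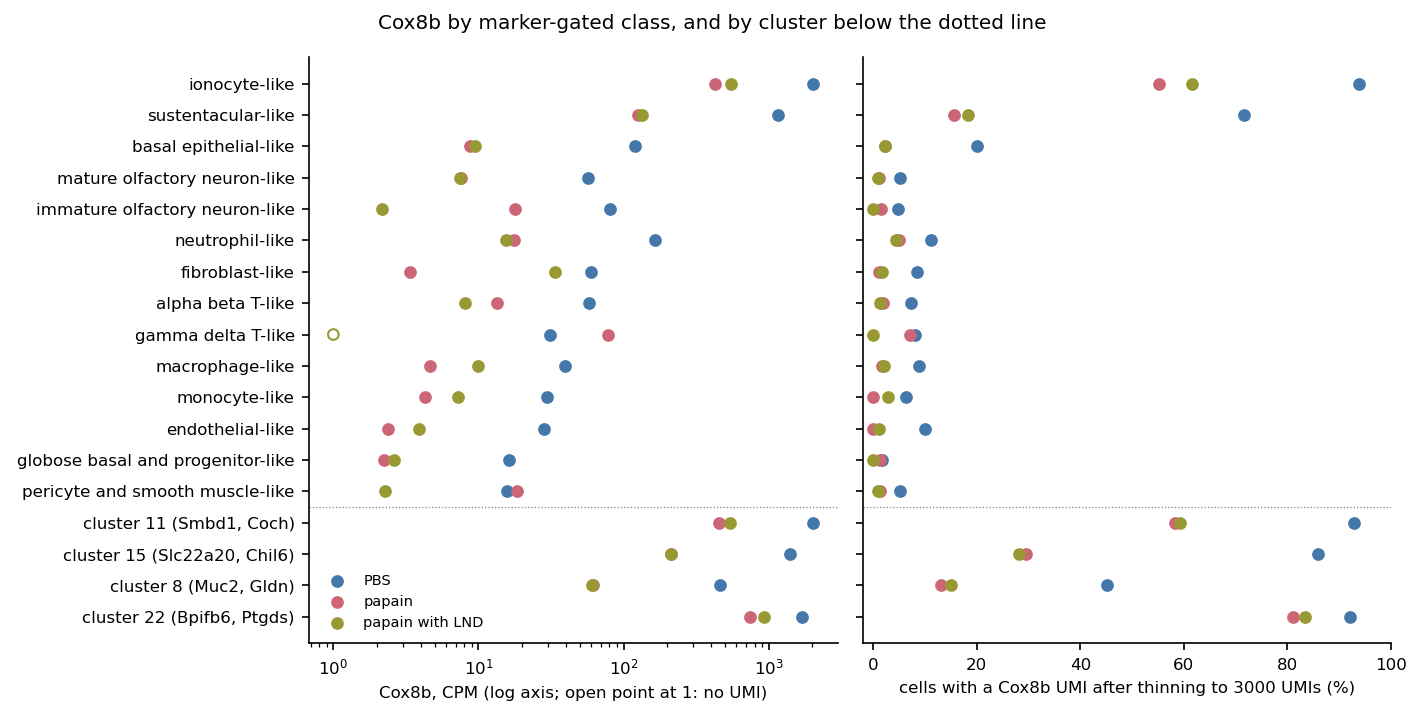
Cox8b CPM (left, log axis) and percent of cells with a Cox8b UMI after thinning to 3000 UMIs (right) by class, and by cluster below the dotted line, in the PBS, papain and papain with LND libraries. Ionocyte-like cells, sustentacular-like cells and cluster 22 stand above the other classes, and the PBS points are highest in each of these 3.

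A group without a class name, cluster 22, was led by Bpifb6, Ptgds and Ces1a and also carried Cox8b. Its 177, 116 and 154 cells had 1691, 750 and 924 CPM, and 92.1%, 81.1% and 83.5% of thinned cells held a UMI. The ratio there was -1.17 [-1.26, -1.09], less far from 0 than the ratios of -2.15 in the ionocyte-like cluster 11 and -2.73 in cluster 15. The counting intervals of these 3 do not overlap.

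Within cells of 1 sex the ratio of papain to PBS was -2.23 in female and -2.34 in male ionocyte-like cells, and -3.32 in female and -2.69 in male sustentacular-like cells. The share of Cox8b in the summed UMIs of Cox8b and Cox8a, which are counts of molecules and not divided by length, was 43.1% in PBS, 21.1% in papain and 25.6% in papain with LND in ionocyte-like cells. It was 43.0%, 10.3% and 10.9% in sustentacular-like cells, and 22.8%, 5.37% and 6.90% over all cells. In both classes the general form made up more of the pair in papain than in PBS.

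The genes with the pattern most like that of Cox8b over 42 sums (14 classes in 3 libraries, log2 of CPM + 1) were Slc44a3 (Pearson r = 0.80), Urod (0.79), Anapc13 (0.78), Eci1 (0.77), Micos13 (0.76), Slc25a11 (0.75), Yif1b (0.75), Isoc2b (0.75), Scnn1b (0.75) and Cldn10 (0.74). The sums share libraries and depth, so these values describe likeness only. Urod, an enzyme of haem synthesis, had 252, 112 and 115 CPM in ionocyte-like cells, and Cldn10, a tight junction protein, had 328, 72.9 and 71.7. Slc44a3, a choline transporter-like protein, had 236, 236 and 213 CPM there and did not differ between PBS and papain as Cox8b did.

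Ndufa4l2, the hypoxia-inducible relative of Ndufa4, was mostly found in pericyte and smooth muscle-like cells, which held 85.4%, 85.3% and 53.7% of its UMIs. In those cells it was counted 560, 603 and 398 times, or 467, 294 and 225 CPM, in the order PBS, papain, papain with LND. A UMI was present in 63.9%, 50.4% and 42.2% of cells, and in 54.9%, 43.8% and 36.8% after thinning, while alpha beta T-like cells had 0, 2 and 0 UMIs. Over all cells its level hardly differed (656, 707 and 741 UMIs, 0.06 [-0.10, 0.21]), while the pericyte share of its UMIs was lower in the LND library. Cox4i2, the hypoxia and lung isoform of a complex IV subunit that the symbol pattern leaves out, had 383, 183 and 164 CPM in the same cells. Ndufa4l2 made up 43.2%, 40.9% and 34.8% of the UMIs of Ndufa4l2 and Ndufa4 there, so within the pair the PBS and papain libraries were close.

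Basal epithelial-like cells had 4, 18 and 82 Ndufa4l2 UMIs, or 0.436, 1.17 and 5.67 CPM. The ratio for LND against papain was 2.25 [1.53, 3.10], and 2.84 [1.85, 4.19] within cluster 2. It was the one chain gene other than Cox8b whose interval lay past 2-fold in any class for this comparison. A UMI was present in 0.344%, 0.420% and 2.78% of the cells, which were 59.7%, 68.4% and 90.9% female among those assigned. The part of that shift in the result was not tested.

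**Figure D5:**
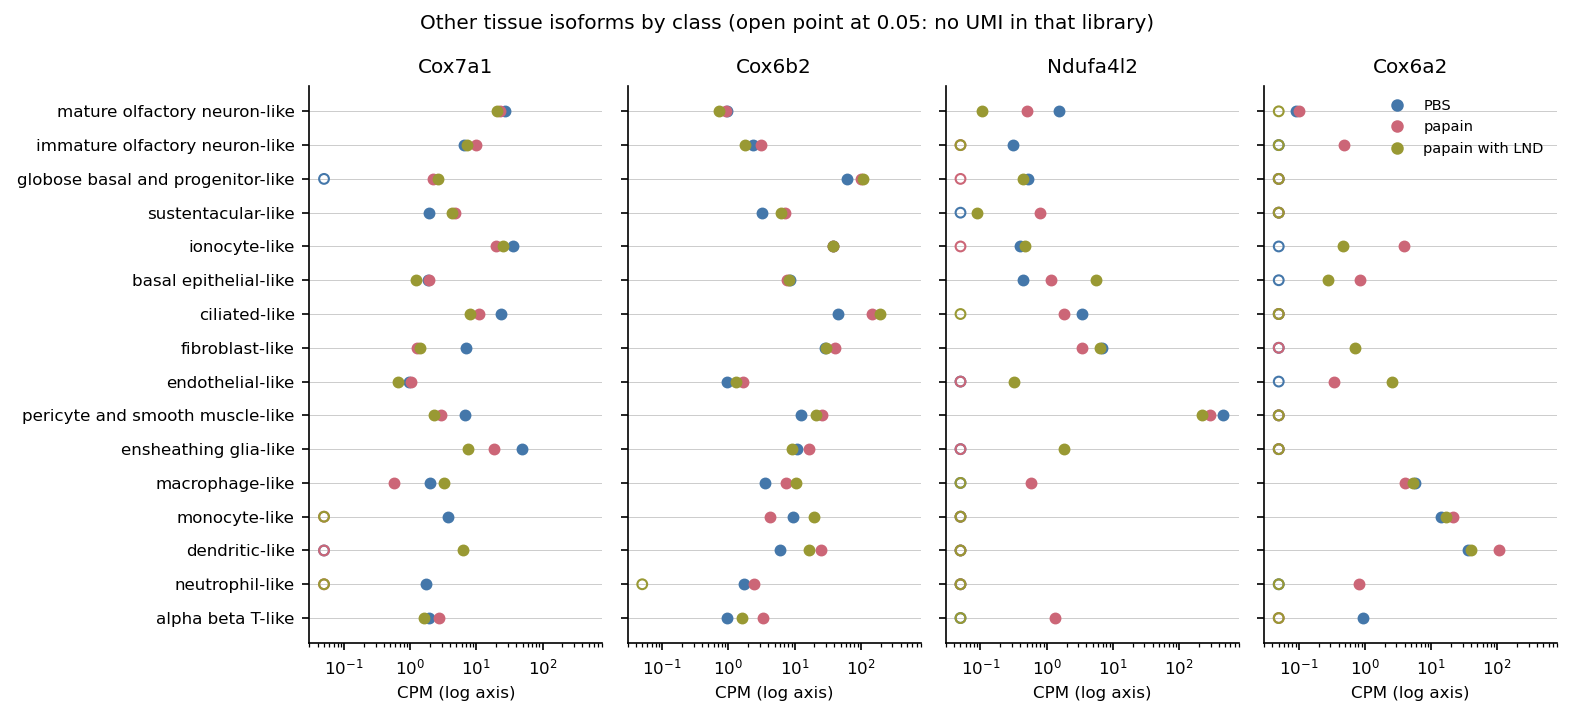
CPM (log axes) of Cox7a1, Cox6b2, Ndufa4l2 and Cox6a2 in 16 marker-gated classes, with a point for each of the PBS, papain and papain with LND libraries and an open point where no UMI was counted. Ndufa4l2 stands out in pericyte and smooth muscle-like cells, Cox6b2 in globose basal and progenitor-like and ciliated-like cells, and Cox6a2 in dendritic-like cells.

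Cox7a1, the muscle form of subunit 7a, had 1056, 626 and 534 UMIs over all cells (-0.81 [-0.95, -0.66]). Mature olfactory neuron-like cells held 56.6%, 35.6% and 36.5% of these, with 598, 223 and 195 UMIs. In CPM they had 27.5, 22.6 and 20.3, a smaller difference, and these neurons were fewer in the papain library. Ionocyte-like cells had 182, 55 and 53 UMIs (35.6 CPM in PBS and 19.6 in papain), and sustentacular-like cells 1.93, 4.72 and 4.32 from 9, 41 and 49 UMIs. Alpha beta T-like cells had 2, 4 and 2 UMIs.

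Cox6b2, known from testis, had 725, 970 and 1210 UMIs over all cells, with ratios of 0.37 [0.23, 0.51] and 0.28 [0.16, 0.41]. Globose basal and progenitor-like cells, the dividing precursors of olfactory neurons, had 62.7, 102 and 109 CPM, with a UMI in 43.0%, 43.1% and 43.5% of cells. Ionocyte-like cells had 37.8, 38.8 and 37.7 CPM, which shows no difference in a class where Cox8b differed 4.73-fold. Ciliated-like cells (85, 41 and 47 cells, too few to be compared) had 27, 80 and 147 UMIs, with 23 of the 27 PBS UMIs in 1 cell. Pericyte and smooth muscle-like cells had 15, 53 and 38 UMIs, a ratio of 1.02 from few counts.

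Cox6a2, the heart and muscle form of subunit 6a, had 105, 238 and 210 UMIs, with ratios of 1.12 [0.79, 1.47] and -0.22 [-0.49, 0.06]. In male cells alone the first ratio was -0.0081, so male cells did not share its direction. Its UMIs came in few cells: 89 cells held at least 2, 15 in PBS, 33 in papain and 41 in papain with LND, and 60 of the 89 fitted no class. Siglech, a plasmacytoid dendritic cell receptor, was detected in 93.3% of these cells against 0.357% of cells without Cox6a2, Ccr9 in 91.0% against 1.15%, and Spib in 77.5%. Dendritic-like cells had 12, 35 and 19 UMIs, or 35.9, 108 and 39.5 CPM. These cells were chosen by Cox6a2 itself, and the genes named were picked for their enrichment, so they describe the cells and test nothing.

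Other genes of the pathway were followed as lists. The 13 mitochondrially encoded subunits took 2.01%, 1.98% and 2.05% of UMIs, their median ratio of papain to PBS was 0.07, and 5 of 13 were below 0. Over the classes their median was above 0 in all but 3 of 14. Their summed level over all cells had a ratio of -0.02, and in the classes the summed ratio ran from -0.53 in pericyte and smooth muscle-like to 0.30 in neutrophil-like cells. The 3 members at least 2-fold higher were mt-Atp8 (1.49), mt-Nd4l (1.19) and mt-Nd6 (1.06). Mitochondrial rRNA was higher in papain in 14 of 14 classes (median 1.18), and its part in these values was not tested.

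Nuclear subunits that the symbol pattern leaves out were all 6 of 6 below 0 with a median of -0.45. Cycs, cytochrome c, was at -0.89, Cyc1, cytochrome c1, at -0.68, Ndufab1 at -0.54 and Cox4i1, the general form of subunit 4, at -0.35 with 100842, 81855 and 85811 UMIs. Of 47 assembly factors, 38 were below 0 (median -0.31), and Sco2, a copper chaperone of complex IV, was the one at least 2-fold lower with 3235, 1296 and 1244 UMIs (-1.37). Citric acid cycle enzymes had 11 of 14 below 0 (median -0.32) and glycolytic enzymes 12 of 15 (median -0.68), among them Eno1 (-1.44) and Pgam1 (-1.04), while Hk2 was at 1.08. Ribosomal protein genes, which have no part in the chain, had 67 of 83 below 0 with a median of -0.14, and over the 14 classes their median ratio was -0.41, beside -0.37 for the nuclear chain genes.

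Regulators of mitochondrial biogenesis had 11 of 14 below 0 over all cells (median -0.30), but over the classes their median was 0.04 with 7 of 14 classes below 0. Ppargc1a, the coactivator PGC-1 alpha, had 8418, 3550 and 3798 UMIs (-1.30). In ionocyte-like cells it had 202, 171 and 182 CPM (-0.24), in sustentacular-like cells 84.6, 23.7 and 19.3 (-1.83), and in basal epithelial-like cells 143, 33.9 and 40.2 (-2.07). Chchd10, a mitochondrial protein abundant in heart and muscle, had 57246, 27489 and 26909 UMIs (-1.11). Its CPM was 1357, 793 and 753 in ionocyte-like, 919, 423 and 435 in sustentacular-like, and 397, 100 and 110 in basal epithelial-like cells. In each of these classes Chchd10 and Cox8b were highest in PBS. Sustentacular-like and basal epithelial-like cells drew on different clusters between libraries, and the part of this was not tested. The nuclear receptor Esrra (-0.12), Nrf1 (-0.31) and Tfam (-0.32) were closer to 0, and Pprc1 was at 0.55. In LND against papain no gene of any of these lists was 2-fold apart.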

How the data were processed

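Per the labels' protocols, nasal mucosa was digested, pooled by group and captured with 10x Genomics Chromium 3′ reagents. The authors deposited UMI counts per gene and barcode, not normalized, made with Cell Ranger: version 2.1.1 on GRCm39 per the submitters' processing notes, 7.1.0 per the file headers. A 3′ tag cannot separate a gene from a copy with the same end.

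A barcode was kept if it had 500 or more UMIs, 200 or more genes and no more than 20% mitochondrial UMIs, and doublets that Scrublet called (scanpy 1.11.5) were removed: 137, 188 and 262, or 1.44%, 1.76% and 2.16%. Deposited totals were 82399462, 86197965 and 89164040 UMIs. A cell joined 1 of 32 marker classes when at least 3 of the class's markers and 40% of them were detected, 15 points ahead of the next class, which placed 24551 of 31789 cells (77.2%). Clusters (34) came from leidenalg 0.10.2 on 2000 variable genes, 40 components and 20 neighbours at resolution 1. Counts were summed by library and class, and a gene entered a class with at least 30 UMIs over the libraries. Ratios had 0.5 counts added, and their intervals are conditional binomial (scipy 1.17.1). Figures used matplotlib 3.10.9. The fold threshold was 2. The ratio script was tested on simulated data.

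Members, lists, gates and comparisons were chosen with earlier results of these data known, and the gate rule, the Muc2 split, the within-cluster values and the account of Cox6a2 cells after seeing these counts. Named are all tissue isoforms with their partners, the Atp5g and Sdh genes, the extremes of each complex, genes 2-fold apart, the top gene of each class and the 10 genes most like Cox8b. Other genes are named from the lists as examples. All 3 libraries are used. Alternatives covered doublets, cell filter, scaling, cell weighting, sex of cells, UMI minimum, classes and class shares.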

Additional observations from a re-analysis of the deposited data

Results flagged for a closer look

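Cox8b went in opposite directions between papain with LND and papain in the female and male cells of the sustentacular-like class. The log2 ratio was 0.43 [0.27, 0.59] in female cells and -0.49 [-0.68, -0.30] in male cells, and the difference between the sexes was not tested.

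Opposite directions were also seen between classes for the same gene and comparison. The ratio was -2.93 [-4.53, -1.85] in immature olfactory neuron-like cells, 3.22 [2.27, 4.56] in fibroblast-like cells and -2.89 [-4.99, -1.56] in pericyte and smooth muscle-like cells. The difference between these classes was not tested. The counts behind them sat in few cells. Immature neuron-like cells had 516, 74 and 6 UMIs in the order PBS, papain, papain with LND, with 112, 33 and 1 in the richest cell. Fibroblast-like cells had 51, 8 and 94 UMIs, with 28, 1 and 39 in the richest cell. Pericyte and smooth muscle-like cells had 19, 38 and 4, with 4, 32 and 1.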

How the results depend on the processing

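The number of chain genes at least 2-fold apart in papain against PBS, 2 in the report, was 4 with cells weighted equally, 5 with no UMI minimum and 1 with class shares averaged over the libraries. For LND against papain it went from 0 to 1 in male cells and to 6 with no UMI minimum. In male cells 8 classes could be compared, of which 8 had a median below 0 in papain against PBS and 5 in LND against papain. The Cox8b ratio of papain to PBS was -2.98 with stricter cells, -2.70 with totals without mitochondrial genes and 18S, -2.53 with equal cell weights, -2.66 in female cells and -2.66 with averaged class shares. For LND against papain it was 0.45 with stricter cells, -0.0245 with equal cell weights, 0.24 in female cells, 0.67 in male cells and 0.19 with averaged class shares. Cox6a2 in papain against PBS reversed to -0.0081 in male cells. Of 368 recomputed values for 23 named genes, that one included, 343 kept their direction and 25 did not, of which 24 had a log2 ratio within 0.3 of 0 before the change. Averaging class shares moved the median of all genes by 0.12, and the chain genes lay 0.40 below it. The cause of these shifts was not tested. No paired analysis was possible because each group was 1 library, and for the same reason no replicate could be left out. Depth limits the tissue isoforms outside their main classes, where counts were few.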
